A study of Mus musculus with 2 samples.

Results

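Cluster 12 of the deposited annotation is a group of 358 cells, all named PT-S2 for segment S2 of the kidney's proximal tubule. Its cells are those with both that name and that cluster number, out of 11759 cells in all. Of them, 66 came from the control library and 292 from the injured one. The clustering was made by the submitters on the expression of these same cells, so the genes that set the cluster apart are a description and not a test.

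The study compared the kidney of a wild-type C57BL/6 mouse of 9 weeks, called a normal control, with that of a wild-type C57BL/6 mouse of the same age after unilateral ischaemia-reperfusion injury with removal of the opposite kidney (IRI), in which blood flow is stopped and restored. The series title places the work in macrophage-mediated tubule regeneration. The kidneys were minced and digested with Liberase and DNase I into suspensions that were sequenced as droplet libraries. The labels give no time after injury, no sex and no nephrectomy for the control, so effects of ischaemia and of nephrectomy cannot be told apart. Each group is a single library, so the spread among animals is unknown and nothing was tested. Expression is given as the deposited count per cell after the submitters corrected it for depth, here called the corrected count. Each comparison describes these 2 libraries, and the 95% intervals given are exact and cover error of counting alone.

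The proximal tubule takes back most of the filtered water, salt, glucose, amino acids and protein. Its first segment, S1, is the main site of sugar and amino acid uptake, S2 secretes organic anions, and S3 is the last stretch before the thin limb. The cells run on fatty acids burned in mitochondria and peroxisomes, and they are among the cells of the kidney most exposed to harm when blood flow stops. Glutathione S-transferases couple glutathione to reactive molecules, and uncoupling protein 2 sits in the inner mitochondrial membrane.

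Cluster 12 made up a larger share of the IRI library. It held 66 of 6589 control cells (1.00%, 0.776 to 1.27) and 292 of 5170 IRI cells (5.65%, 5.03 to 6.31), a ratio of 5.64 (4.30 to 7.48). Within the cells named PT-S2 its share was 2.37% (1.84 to 3.01) in the control, out of 2785 cells, and 19.7% (17.7 to 21.8) after IRI, out of 1482, which is 8.31 times as high (6.35 to 11). The ratio moved with depth, the number of unique molecules (UMIs) read per cell: among PT-S2 cells with at least 1000 raw UMIs it was 11.5, and with at least 2000 raw UMIs it was 26.2. In that deepest set cluster 12 held 31 of 1186 control PT-S2 cells (2.61%, 1.78 to 3.69) and 207 of 302 IRI PT-S2 cells (68.5%, 63.0 to 73.7). A share of cells can differ through a gain of cluster 12 cells or a loss of others, and these cannot be told apart here.

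**Figure D1:**
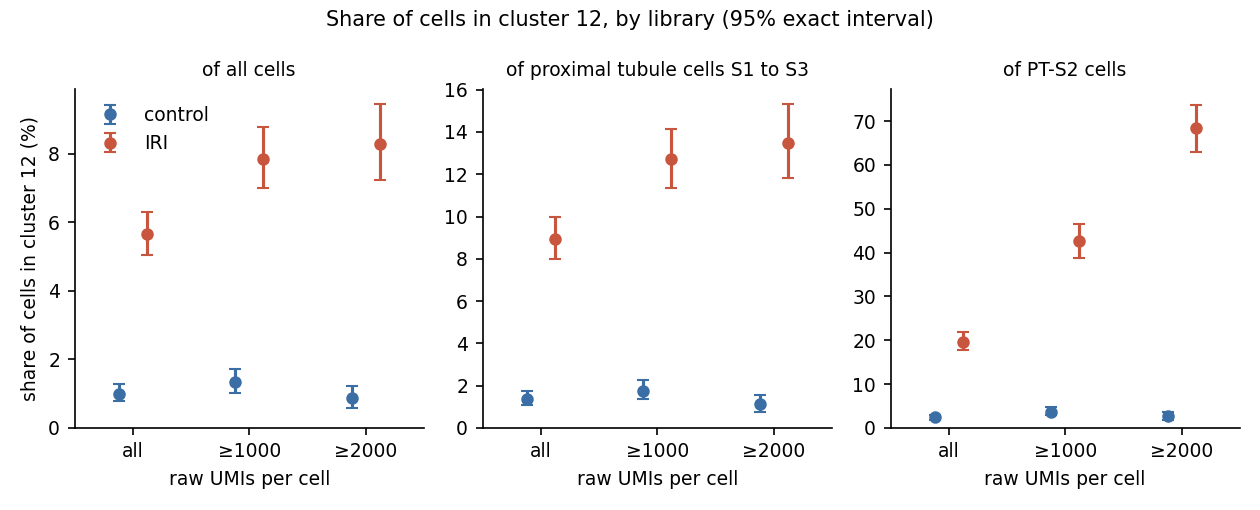
Share of cells that lay in cluster 12 (percent), out of all cells, of proximal tubule cells S1 to S3 and of PT-S2 cells, for all cells and for cells with at least 1000 and at least 2000 raw UMIs. Points are the control and IRI libraries and bars are exact 95% intervals for counting error. In each panel the IRI point lies above the control point, and among PT-S2 cells with at least 2000 raw UMIs the shares are 2.61% and 68.5%.

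The cells of cluster 12 were deeper and held less mitochondrial RNA than the other PT-S2 cells as a pooled set. Their median was 1951 raw UMIs and 828 genes in the control library and 2667.5 raw UMIs and 990.5 genes in the IRI library, against 1457 and 749.5 raw UMIs in the other PT-S2 cells. Mitochondrially encoded transcripts took 8.68% of corrected counts in their control cells and 9.39% in their IRI cells, against 16.7% and 30.4% in the other PT-S2 cells. Single clusters differed from that: control clusters 1 and 18 were deeper than cluster 12 (medians of 3991 and 7236 raw UMIs) and lower in mitochondrial share (7.87% and 5.14%), and the 25 IRI cells of cluster 1 had a share of 9.37%. The other IRI PT-S2 cells were mostly cluster 0 (1092 of 1190 cells, median 745 raw UMIs). The other control PT-S2 cells were mostly clusters 1 and 2 (1283 and 898 of 2719 cells). The part of depth and mitochondrial share in the results below was not tested, and values from cells with at least 2000 raw UMIs or from another scaling stand beside the results they touch. No cell barcode was shared between the libraries within cluster 12, and 1 of its 66 control barcodes also occurred among IRI cells of another cluster.

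Malat1, a long noncoding RNA that stays in the nucleus, was scarce in cluster 12. Its mean corrected count per cell was 0.682 among control cells and 0.884 among IRI cells, it was above 0 in 50% of cells of each library, and its highest value was 3 and 6. Such low levels were found in other clusters too. In 8 of the 11 other proximal tubule clusters of the control library the mean lay between 0.156 and 3.66, and in 6 of the 9 others of the IRI library between 0.92 and 4.64. The remaining 3 clusters of each library, among them PT-S1 cluster 5 (217 control, 166 IRI) and the IRI cells named injured proximal tubule (127), lay far above, as did T cells (41.5 and 28.3). Within IRI cluster 12, split by raw UMIs into 4 sets of 73 cells, the mean was 1.77 in the shallowest set and 0.233 in the deepest. How Malat1 bears on the other results was not tested.

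**Figure D2:**
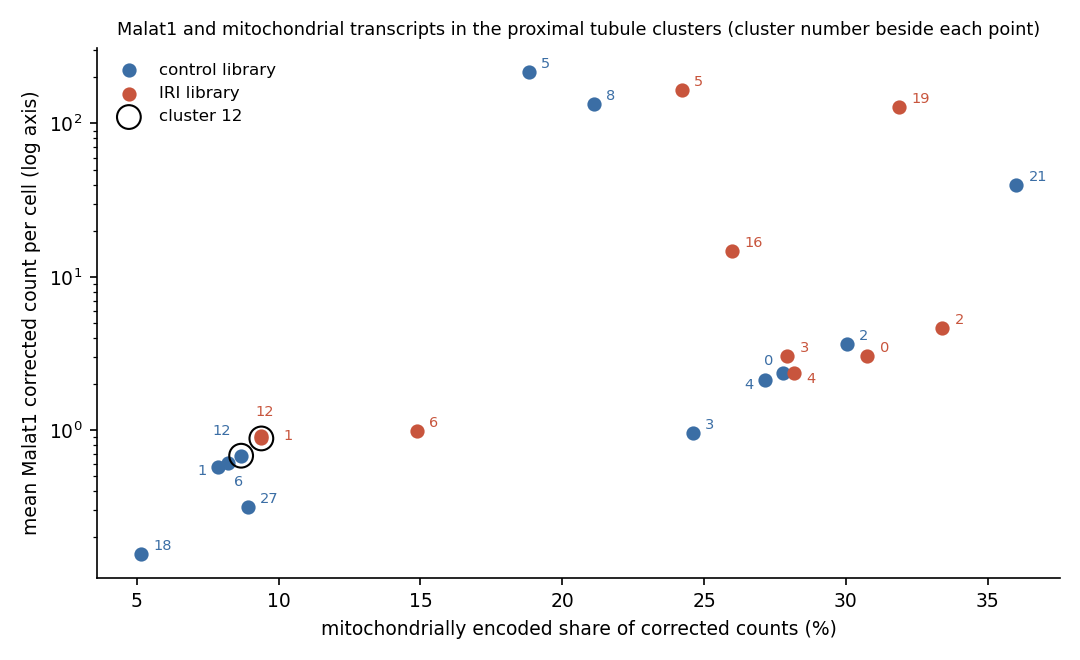
Mean Malat1 corrected count per cell (log axis) against the mitochondrially encoded share of corrected counts (percent) for each proximal tubule cluster with at least 20 cells, with the cluster number beside each point and the library as colour. The circled cluster 12 points sit at the low end of both axes (0.682 at 8.68% and 0.884 at 9.39%), beside cluster 1 and control cluster 6, while clusters 5, 8, 16, 19 and 21 lie at 14.7 or above.

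Segment genes were those of S2 in the main. Of the summed means of 3 lists of segment markers, genes of the S2 list such as the organic anion transporter Slc22a6 took 59.6% in control and 56.0% in IRI cluster 12. S1 genes took 27.2% and 27.7%, and S3 genes 13.2% and 16.4%. The S2 list also holds the nuclear receptor Hnf4a, which is on the list of proximal tubule transcription factors as well and is not particular to S2. PT-S1 cluster 6 of the IRI library had 55.0% from S1 genes and 39.4% from S2 genes. PT-S3 clusters 3, 4 and 8, in each library with at least 20 of their cells, had between 48.5% and 58.4% from S2 genes, near cluster 12. PT-S3 cluster 21, found among control cells, had 24.7% from S2 genes and 66.7% from S3 genes. Genes shared by all segments were present as well. Miox, which breaks down inositol, was above 0 in 95.5% of the control cells and in 95.2% after IRI, and Kap, an androgen-regulated protein of the mouse proximal tubule, in 100% and 99.7%.

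Across genes, the mean profile of IRI cluster 12 was most like that of IRI PT-S2 cluster 0 (Pearson r = 0.962 over 2070 genes), then control cluster 2 (0.951) and control cluster 1 (0.946). With IRI PT-S1 cluster 6 it was 0.941. The value with the 66 control cells of cluster 12 was 0.932 over 2378 genes. Gene sets and cell numbers differ between these values, and a mean over few cells carries more counting error. The value for 66 cells is therefore not strictly comparable with the others. These values are across genes, which are not independent replicates, and the profiles share library, depth or base composition, so they are descriptions. Control cluster 1, with 1283 control and 25 IRI cells, is the largest PT-S2 cluster of the control library. It had a mitochondrial share of 7.87% and a Malat1 mean of 0.577, near those of cluster 12, and it serves below as another control set.

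The 6 genes given as markers of the cluster differ in role. Gstm1 and Gsta2 are glutathione S-transferases, Acaa1b acts in peroxisomal fatty acid breakdown, Fitm1 in lipid droplet formation, and Cox6b2 is a subunit of cytochrome c oxidase, while Fam25c is given by name alone. In the IRI library each had a higher mean in cluster 12 than in other PT-S2 cells. In the control library Gsta2 and Fam25c were at least 2-fold higher there, Gstm1 was at least 2-fold lower, and Acaa1b, Fitm1 and Cox6b2 were within 2-fold. Among control cells with at least 2000 raw UMIs Fam25c lay on the other side, at a log2 ratio of -0.19. Among such IRI cells, 207 in cluster 12 and 95 outside it, 0 of the 6 markers passed 2-fold, with a median log2 of 0.86 beside 0.24 over all genes.

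The mean of Gstm1 was 0.394 for control and 2.26 for IRI cells of cluster 12, and it was 1.06 and 0.750 in the other PT-S2 cells. It was above 0 in 33.3% (22.2 to 46.0) of control and 76.7% (71.4 to 81.4) of IRI cluster 12 cells. In IRI T cells, which stand here for cells outside the tubule, the share was 4.12% at a median of 3345 raw UMIs. Of its paralogs, Gstm5 had means of 0.742 and 1.03 in control and IRI cluster 12, and Gstm2, Gstm4, Gstm6 and Gstm7 were at 0.0342 or below in both, though reads of such near copies may be split between them.

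Gsta2 was near the same level in both libraries: its mean was 1.20 in control and 1.12 in IRI cluster 12, and it was above 0 in 50% and 54.5% of cells. Other PT-S2 cells had a mean of 0.211 among control and 0.564 among IRI cells. The log2 ratio of cluster 12 over other PT-S2 cells, with 0.05 added to each mean, was 2.26 within the control and 0.93 within the IRI library. Over control cluster 1, where Gsta2 had a mean of 0.157, the IRI cells of cluster 12 stood at 2.49.

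Acaa1b and Fitm1 were held by most IRI cells of the cluster. Acaa1b had means of 0.773 and 1.25 in control and IRI cluster 12, and was above 0 in 43.9% (31.7 to 56.7) and 65.4% (59.6 to 70.9) of cells. Fitm1 had means of 0.773 and 1.21, and was above 0 in 48.5% (36 to 61.1) and 68.5% (62.8 to 73.8). Both were scarcer in the other IRI PT-S2 cells, at 0.390 and 0.397, and close to the control level of cluster 12 in the other control PT-S2 cells, at 0.682 and 0.720. The near copy of Acaa1b, Acaa1a, was at 0.364 in control and 0.161 in IRI cluster 12.

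Cox6b2, whose protein is known best from sperm mitochondria, was scarce in the control cells. Its mean was 0.0303 in control and 0.596 in IRI cluster 12, and 0.0228 and 0.198 in the other PT-S2 cells. It was above 0 in 2 of 66 control cells (3.03%, 0.369 to 10.5) and 108 of 292 IRI cells (37.0%, 31.4 to 42.8). The widely expressed form Cox6b1 had means of 5.20 and 6.49 in control and IRI cluster 12.

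Ucp2, uncoupling protein 2, was not on the marker list but headed the genes higher in IRI cluster 12 than in other IRI PT-S2 cells, with means of 0.839 and 0.194. It was above 0 in 3.03% (0.369 to 10.5) of control and 51.0% (45.1 to 56.9) of IRI cluster 12 cells. T cells, which express Ucp2 themselves, had it in 55.7% of IRI cells, and vascular cells in 10.4%.

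**Figure D3:**
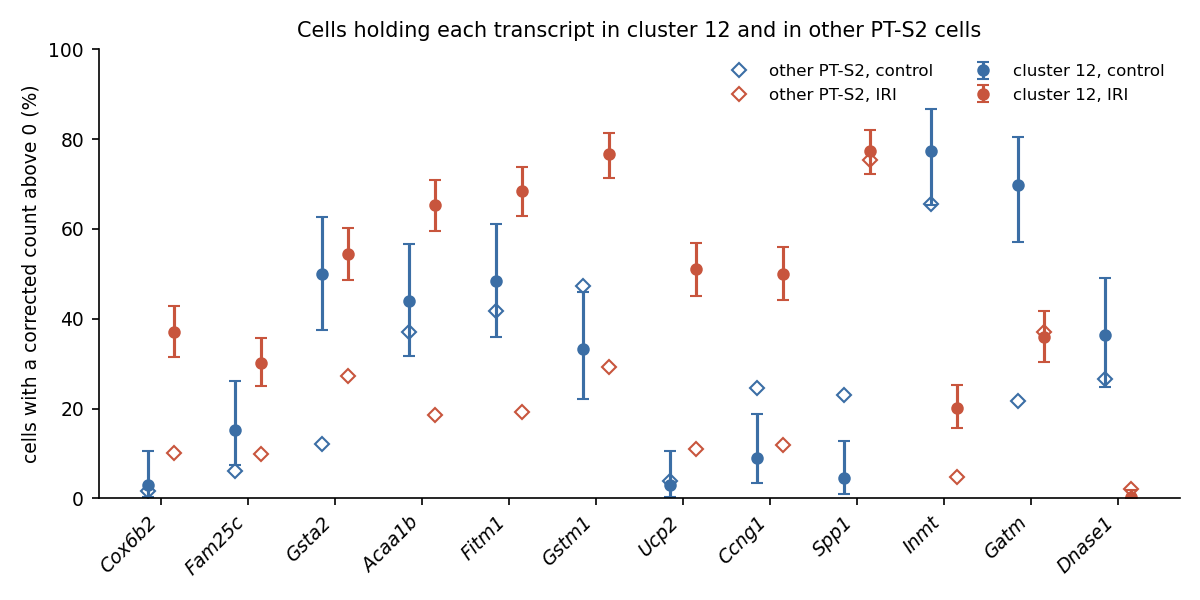
Share of cells with a corrected count above 0 (percent) for 12 genes. Filled points are cluster 12 with exact 95% intervals for counting error, open diamonds are the other PT-S2 cells, and colour is the library. Cox6b2, Ucp2, Gstm1 and Ccng1 are held by more cells in IRI cluster 12 than in the other 3 sets, Spp1 by most cells of both IRI sets, and Inmt and Dnase1 by fewer IRI than control cells in both sets.

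Single cells held the markers to an uneven degree. Of the 292 IRI cells, 2 held 0 of the 6 markers, 22 held 1, 50 held 2, 89 held 3, 75 held 4, 43 held 5 and 11 held 6. Of the 66 control cells, 7 held 0 and 6 held 4, the highest number reached. Among the other IRI PT-S2 cells 408 of 1190 (34.3%) held 0 and 1 held 6, at a lower depth.

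The promoters of Ucp2 and Fitm1 are shown because they hold a match to one of the elements searched, and those of Cox6b2 and Gstm1 as examples without one. The promoters of Ucp2 and the 6 markers were searched for the letters of 2 elements: the antioxidant response element bound by NRF2, a transcription factor of the antioxidant response, and the direct repeat bound by PPAR alpha, one of the fatty acid response. The sequences are RefSeq's in build GRCm38.p6, each a window of 300 bases around the start site. The first element was searched as TGACNNNGC and the second as a pair of AGGTCA copies with any base N between them, on both strands, and they occur in 12.4% and 0.0396% of 32851 mouse promoters of this length. A match to the first, shown in capitals, lies in the promoters of Ucp2 (chr7:100493108-100493407, plus strand) and Fitm1 (chr14:55575424-55575723, plus strand), in each case on the reverse strand. Thus 1 of the 6 markers had a match to the first element, and Gsta2, Acaa1b and Fam25c had none. Neither set of letters occurs in the windows of Cox6b2 (chr7:4753045-4753344, minus strand) and Gstm1 (chr3:108017924-108018223, minus strand, the first of 2 starts). The second element has no match in the promoters of the 6 markers or Ucp2. A match is a description of the letters and not a measured site.
Ucp2: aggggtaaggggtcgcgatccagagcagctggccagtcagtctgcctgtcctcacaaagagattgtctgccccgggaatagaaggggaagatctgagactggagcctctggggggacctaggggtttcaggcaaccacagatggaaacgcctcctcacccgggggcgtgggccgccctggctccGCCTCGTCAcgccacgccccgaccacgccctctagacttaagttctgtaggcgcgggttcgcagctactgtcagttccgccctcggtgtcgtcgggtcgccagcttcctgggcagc
Fitm1: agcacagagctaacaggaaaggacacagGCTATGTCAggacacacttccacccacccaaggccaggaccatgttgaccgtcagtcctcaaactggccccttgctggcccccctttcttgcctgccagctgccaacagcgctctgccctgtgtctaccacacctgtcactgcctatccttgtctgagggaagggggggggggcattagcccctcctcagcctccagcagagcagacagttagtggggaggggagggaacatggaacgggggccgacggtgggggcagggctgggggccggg
Cox6b2: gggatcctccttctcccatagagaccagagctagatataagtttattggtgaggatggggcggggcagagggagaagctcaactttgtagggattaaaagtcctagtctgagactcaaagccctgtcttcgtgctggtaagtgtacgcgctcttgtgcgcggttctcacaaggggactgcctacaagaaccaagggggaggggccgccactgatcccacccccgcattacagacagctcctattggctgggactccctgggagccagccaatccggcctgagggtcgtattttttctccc
Gstm1: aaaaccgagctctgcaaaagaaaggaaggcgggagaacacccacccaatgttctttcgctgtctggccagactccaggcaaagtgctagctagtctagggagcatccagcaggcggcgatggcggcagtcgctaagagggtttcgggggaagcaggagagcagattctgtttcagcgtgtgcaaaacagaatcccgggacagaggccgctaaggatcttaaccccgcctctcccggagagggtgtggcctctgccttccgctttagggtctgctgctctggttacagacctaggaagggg

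Set against the other PT-S2 cells of the IRI library, 442 of 7845 genes with at least 10 summed corrected counts (5.63%) were at least 2-fold higher in cluster 12 and 18 (0.229%) at least 2-fold lower. The median over all genes was a log2 ratio of 0.30. Scaling by totals without mitochondrial, ribosomal protein and haemoglobin genes moved well-expressed genes down by 0.73, and the counts were then 3 higher and 41 lower. Levels in this comparison are therefore read against that shift, beside mitochondrial shares of 9.39% and 30.4%.

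Genes of fatty acid breakdown stood high in this comparison before scaling and near the median after it. Of 20 genes of mitochondrial fatty acid oxidation 7 were at least 2-fold higher, with a median log2 of 0.79. Among them were 2 enzymes of the oxidation spiral and its side steps, Echs1 (0.596 against 0.203) and Decr1 (0.339 against 0.116). Of 23 genes of the peroxisomal pathway 8 were higher, with a median of 0.69, among them the isomerase Ech1 (1.19 against 0.440). After scaling no gene of either list passed 2-fold, and the medians were 0.16 and 0.14, beside 0.02 over all genes. Of 16 glutathione S-transferases 4 were higher (Gstp1, Gstm1, Gstz1 and Gstt2), and after scaling none. With at least 2000 raw UMIs 1 gene of mitochondrial oxidation, 0 of the peroxisomal pathway and 0 glutathione S-transferases were at least 2-fold higher. Over all genes 196 of 4777 were higher at that depth.

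The 12 highest named ratios were led by Ucp2 (log2 1.86, scaled 1.19) and the drug-methylating enzyme Tpmt (1.66, scaled 1.07), and these 2 were past 2-fold after scaling as well. The marker Acaa1b came next (1.56, scaled 0.87), then the p53 target cyclin G1, Ccng1 (1.56, scaled 0.89), and the cytokine signal inhibitor Socs2 (1.55, scaled 0.97). They were followed by Gstp1 (1.54), Gstm1 (1.53), the alcohol dehydrogenase Adh1 (1.51, scaled 0.86), Acsm3 (1.51), C1d, Gchfr and Fitm1 (1.49). Among cells with at least 2000 raw UMIs Tpmt (1.13), Adh1 (1.36), C1d (1.19) and Gchfr (1.18) were past 2-fold, while the other 8 lay between 0.73 and 0.99, with Ucp2 at 0.85. Among the genes lower were Malat1 (-1.76), megalin, the endocytic receptor Lrp2 (0.229 against 0.648, log2 -1.32), and the S1 lactate transporter Slc5a12 (0.0274 against 0.143, log2 -1.32). Of 13 mitochondrially encoded genes 11 were at least 2-fold lower, with a median of -1.47, and 12 were lower among cells with at least 2000 raw UMIs. Over all genes 18 of 7845 (0.229%) were lower, and 103 of 4777 at that depth.

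In the control library fewer genes passed the limit: 103 of 9298 (1.11%) were at least 2-fold higher in cluster 12 and 48 (0.516%) at least 2-fold lower, and the scaling turned this split to 43 and 69. The genes higher in control cluster 12 included Gsta2 (1.20 against 0.211) and enzymes of arginine and creatine. Gatm, the first enzyme of creatine synthesis, had a mean of 1.95 against 0.580, and the argininosuccinate lyase Asl 0.348 against 0.0975. The ornithine aminotransferase Oat had 0.167 against 0.0320. Of 22 genes of amino acid breakdown 5 were at least 2-fold higher, among them Gatm, Asl, Prodh2 and Ass1, and Hpd was lower, with a median log2 of 0.19 beside 0.03 over all genes. Osteopontin, Spp1, was lower in control cluster 12 (0.0455 against 0.259), but the ratio had the other sign among cells with at least 2000 raw UMIs (log2 0.22) and against cluster 1 alone (log2 0.41).

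Between the libraries, with the cluster held fixed, 163 of 4758 genes (3.43%) were at least 2-fold higher in IRI cluster 12 and 70 (1.47%) at least 2-fold lower, with a median log2 of 0.06. Scaling by the trimmed mean of log ratios gave 291 and 49. The filter on low values sums counts over 292 IRI and 66 control cells. A gene seen in IRI cells alone thus passes it at a lower mean than one seen in control cells alone, which favours genes higher in IRI. Because the control side is 66 cells, the values of most genes named below are set beside the same IRI cells over control cluster 1 (47 of 8497 genes higher, 0.553%, and 62 lower, 0.73%). Both comparisons share the 292 IRI cells. In the other PT-S2 cells, IRI over control had 27 of 10009 genes higher (0.27%) and 234 lower (2.34%), and 78 and 82 after scaling by totals. Those cells are mostly cluster 0 in the IRI library and mostly clusters 1 and 2 in the control. Their values here and below therefore do not hold the cluster fixed, and the part of this make-up was not tested. Control cluster 1 is itself part of the other control PT-S2 cells (1283 of 2719).

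Spp1, a secreted phosphoprotein of injured tubules, had the highest ratio. Its mean was 0.0455 in control cluster 12 and 2.0 in IRI cluster 12 (log2 4.42), and 0.0218 in control cluster 1 (log2 4.83). It was above 0 in 4.55% (0.947 to 12.7) of control and 77.4% (72.2 to 82.1) of IRI cells of cluster 12. Other IRI cells held as much or more: other PT-S2 cells had a mean of 2.52 and PT-S3 cluster 3 a mean of 15.0. IRI T cells and vascular cells held it in 52.6% and 59.4% of cells, at medians of 3345 and 1131 raw UMIs, so free RNA can add to the share, and its part was not tested.

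Ucp2 and Cox6b2 also had high ratios against both control sets, with log2 3.47 and 3.07 for Ucp2 and 3.01 and 3.22 for Cox6b2. In the other PT-S2 cells the IRI over control values were 1.27 and 1.77. S100a6, a calcium-binding protein (mean 0.284), Wfdc2, a secreted protease inhibitor (0.267), and the sulfiredoxin Srxn1 (0.144) are listed at 0 in all 66 control cells, which allows up to 4.55% of cells with a count. In control cluster 1 their means were 0.00234, 0.0203 and 0.0592, which puts Srxn1 at a log2 ratio of 0.83, within 2-fold. S100a6 and Wfdc2 stood higher in cells outside the proximal tubule of the IRI library than in cluster 12, and the part of free RNA in them was not tested.

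For Gstm1 and Ccng1 the size depended on the control set. Gstm1 had a log2 ratio of 2.38 over control cluster 12 and 0.87 over control cluster 1, whose mean was 1.22. Ccng1 stood at 0.121 in control and at 0.760 in IRI cells of cluster 12 (log2 2.24), and of 0.521 in control cluster 1 (log2 0.50). Both were lower in the IRI library among other PT-S2 cells (-0.47 and -0.48, and scaled -0.03 and -0.09).

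Dnase1, Inmt, Gadd45g and Dbp were lower in IRI cluster 12 and also in the other IRI PT-S2 cells. The deoxyribonuclease Dnase1 averaged 0.576 per control cell and 0.00342 per IRI cell of cluster 12, with 24 of 66 and 1 of 292 cells above 0. Its log2 ratio was -3.55, and -3.63 over control cluster 1 and -2.66 in the other PT-S2 cells. Inmt, a methyltransferase of tryptamine, had means of 2.5 and 0.322 (log2 -2.78), and was above 0 in 77.3% (65.3 to 86.7) and 20.2% (15.8 to 25.3) of cells. Against control cluster 1 it was at -3.03 and in the other PT-S2 cells at -4.07. The growth arrest gene Gadd45g (-2.17) and the clock output factor Dbp (-1.98) were at -2.03 and -2.01 in the other PT-S2 cells, and at -2.09 and -1.74 over control cluster 1.

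Gatm lay on opposite sides for the 2 control sets. Its mean was 1.95 for control and 0.699 for IRI cells of cluster 12 (log2 -1.42), but 0.309 in control cluster 1, which gives 1.06. Of 19 genes of amino acid breakdown 3 (Gatm, Asl and Prodh2) were at least 2-fold lower in IRI cluster 12 and 0 higher, with a median of -0.26. Over all genes 1.47% were lower and 3.43% higher, with a median of 0.06. Against control cluster 1 Asl was at 0.49 and Prodh2 at 0.52.

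Other named genes lower in IRI cluster 12 were the fatty acid binding protein Fabp3 (0.379 in control and 0.0582 in IRI cells, log2 -1.99), the vitamin K recycling enzyme Vkorc1 (-1.5) and the co-chaperone Dnajc12 (2.27 and 0.777, log2 -1.49). Over control cluster 1 these were at -0.42 for Fabp3, -0.60 for Vkorc1 and -1.97 for Dnajc12. Of 22 immediate early and stress genes 10 were measured, and Gadd45g and Dusp1 were at least 2-fold lower. Over all genes 70 of 4758 (1.47%) were lower. Among secreted and plasma proteins 4 of 11 were higher (Spp1, Wfdc2, Cpn1 and Apoe), with a median of 0.81. Over all genes 3.43% were higher and the median was 0.06. Wfdc2, at 0 in control cluster 12, passed the filter through the IRI cells alone. The apolipoprotein Apoe had means of 0.0303 and 0.140 and a log2 ratio of 1.25, against 1.23 in the other PT-S2 cells and 1.16 over control cluster 1. B2m, the light chain of class I antigen presentation, had means of 0.152 and 0.418, with log2 1.22 in cluster 12, 1.49 in the other PT-S2 cells and 1.63 over control cluster 1.

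Kap, the androgen-regulated protein, was at 17.3 per control cell and 16.1 per IRI cell of cluster 12, a log2 ratio of -0.11. Among other PT-S2 cells it was at 32.2 in control and 9.65 in IRI cells (log2 -1.73), and in control cluster 1 32.9, which puts IRI cluster 12 at -1.03. The control cells of cluster 12 thus held less Kap than the other 2 control sets, which overlap. Cluster 1 gives 1283 of the 2719 other control PT-S2 cells. The sex of the mice is not given in the labels.

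**Figure D4:**
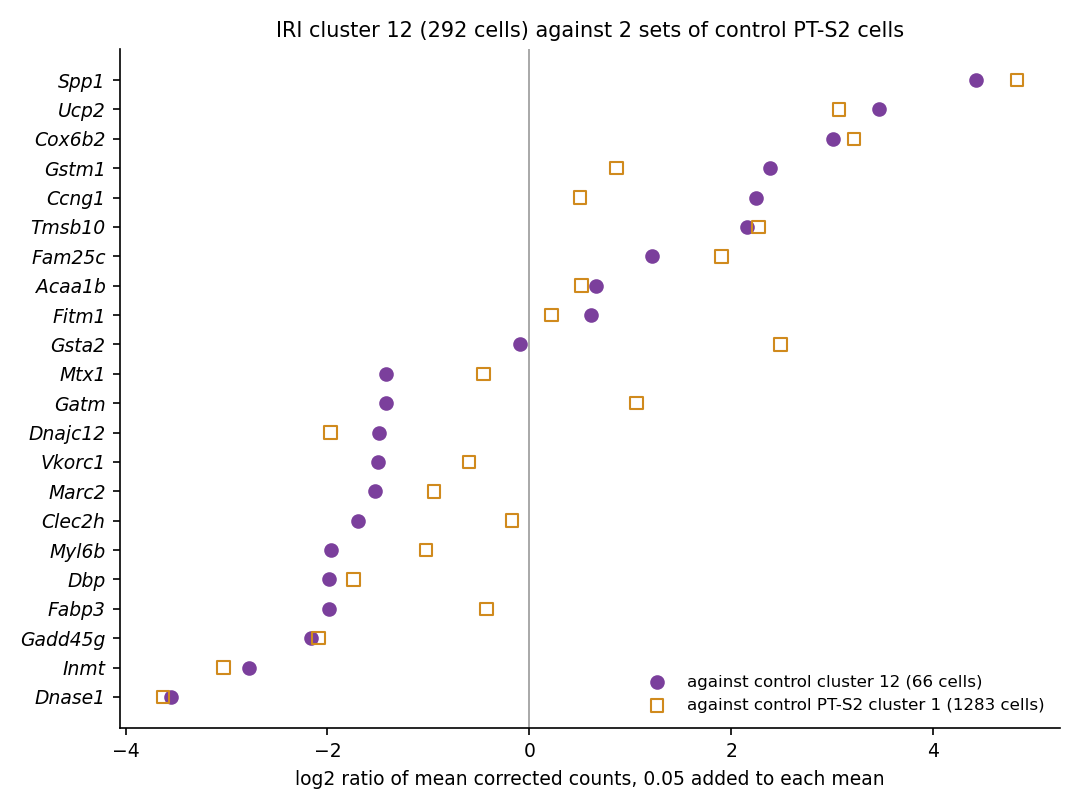
Log2 ratio of the mean corrected count in IRI cluster 12 over control cluster 12 (filled circles) and over control PT-S2 cluster 1 (open squares), 0.05 added to each mean, for the named genes with a control value above 0 and 4 markers. Spp1, Ucp2, Cox6b2, Inmt and Dnase1 lie far from 0 on the same side for both control sets, Gstm1 and Ccng1 lie nearer to 0 over cluster 1, and Gatm (-1.42 and 1.06) and Gsta2 (-0.10 and 2.49) lie on opposite sides.

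Genes described as PPAR alpha targets stood above the median in this comparison. Of 17 measured genes 4 were at least 2-fold higher in IRI cluster 12, among them Ucp2, Acot1 and Ehhadh, and 0 lower, with a median log2 of 0.66, and after scaling 3 were. The thioesterase Acot1 had means of 0.0758 and 0.346, and the peroxisomal enzyme Ehhadh had 0.0909 and 0.356, and over control cluster 1 they were at 1.37 and 0.86. Among cells with at least 2000 raw UMIs, with 31 control cells left, 7 of 17 were higher. Over all genes 355 of 4160 were higher at that depth, and 163 of 4758 (3.43%) at all depths. The list also holds the markers Acaa1b and Fitm1. Over control cluster 1 the list had 3 of 20 higher, with a median of 0.40. Over all genes 47 of 8497 (0.553%) were higher there, with a median of 0.00. Broad lists were near 0 with the cluster held fixed. Mitochondrial fatty acid oxidation had 1 of 19 genes higher (Decr1) and a median of 0.17, nuclear genes of cytochrome c oxidase had 1 of 13 higher (Cox6b2) and a median of 0.22, and other nuclear genes of the respiratory chain 0 of 33 and a median of 0.13. NRF2 targets and antioxidant enzymes had 2 of 26 higher (Srxn1 and Cbr1), 1 lower (Gsr) and a median of 0.00. Over all genes 1.47% were lower.

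Of the tubule injury genes besides Spp1, S100a6 was above 0 in 69 of 292 IRI cells (23.6%, 18.9 to 28.9) and the keratin Krt8 in 26 (8.90%), against 0 and 7 of 66 control cells. Classic injury markers were rarer. Havcr1, which codes for kidney injury molecule 1, was above 0 in 8 of 292 IRI cells (2.74%, 1.19 to 5.33), the lipocalin Lcn2 in 12 (4.11%, 2.14 to 7.07), and the adhesion protein Vcam1 in 1 (0.342%). These 3 were at 0 of 66 control cells. Of the 24 genes of this list, 8 passed the filter on low values in the comparison of libraries, and Spp1 and S100a6 were at least 2-fold higher. Over all genes 3.43% were. S100a6, at 0 in the control cells, passed the filter through the IRI cells alone. The mean of Lcn2 was 0.0445 in IRI cluster 12 and 0.0412 in IRI T cells. Mki67, a marker of dividing cells, is listed at 0 in cluster 12 of both libraries.

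PT-S3 cluster 3 (727 of 854 cells from the IRI library, median 2471 raw UMIs there) and PT-S1 cluster 6 (479 of 755 cells, median 2992) are proximal tubule clusters of similar depth that also came mostly from that library. Their mitochondrial shares in the IRI library were 27.9% and 14.9%, beside 9.39% in cluster 12. Scaling by totals as above moved well-expressed genes down by 0.33 against cluster 3 and by 0.12 against cluster 6. Values below are unscaled unless stated. Against cluster 3 IRI cluster 12 had 158 of 8352 genes at least 2-fold higher (1.89%) and 309 lower (3.7%), with a median of -0.02. Of 17 tubule injury genes 6 were lower in cluster 12, led by Spp1 (2.0 against 15.0, log2 -2.88), Havcr1 (0.0274 against 0.216) and complement C3 (0.0377 against 0.234). Of 18 lysosomal genes 12 were lower with a median of -1.36, among them the cathepsin Ctsb (0.0856 against 0.659) and prosaposin, Psap (0.175 against 1.07). Of 19 sodium-coupled and sugar transporters 12 were lower (median -1.21), of 14 secreted proteins 9 (-1.11), and of 12 endocytic genes 5 (-0.86). Of 18 organic ion transporters 7 were lower (-0.88), and of 12 genes of class I antigen presentation 6 (-0.84).

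Of 20 chaperones 5 were at least 2-fold lower in IRI cluster 12 than in IRI cluster 3. Over all genes 3.7% were lower and 1.89% higher. These 5 chaperones work in the endoplasmic reticulum: Calr (0.0651 against 0.666), Hsp90b1 (0.0274 against 0.385), Hspa5, Pdia6 and Pdia3. The list also holds Pdia4, Sdf2l1, Herpud1 and Dnajb9 of that compartment, which were not among the 5. Dnajc12, a cytosolic co-chaperone, was higher (0.777 against 0.242). Among other genes higher in cluster 12 before scaling by totals, the ferritin heavy chain Fth1 had a mean of 109.7 against 49.6, and the cytochrome b5 gene Cyb5a 6.98 against 2.58. Of 13 nuclear cytochrome c oxidase genes 1 was higher (Cox6b2) with a median of 0.36, and after scaling 0 were higher and 1 lower with a median of 0.04. Of 33 other nuclear respiratory chain genes 3 were higher and 0 lower with a median of 0.58, and after scaling 0 were higher and 1 lower with a median of 0.25. Of 13 mitochondrially encoded genes 12 were lower (median -1.57).

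Lysosomal, transporter and endocytic lists leaned the same way in the control library, where 127 cells of cluster 3 and 66 of cluster 12 were compared and 137 of 3537 genes were at least 2-fold higher (3.87%) and 301 lower (8.51%). There 9 of 16 lysosomal genes were lower (median -1.19), 9 of 14 sodium-coupled and sugar transporters (-1.07) and 3 of 9 endocytic genes (-0.59). The sum of segment S2 genes was 2.39 in control cluster 12 and 4.98 in control cluster 3, and 2.24 and 5.30 in the IRI library.

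PT-S1 cluster 6 was closer, with 56 of 7562 genes at least 2-fold higher (0.741%) in IRI cluster 12 and 81 lower (1.07%). Segment genes were part of the gap: 7 of 12 S1 genes were lower, with a median of -1.49, among them Slc5a12 (0.0274 against 0.557) and the amino acid transporter Slc7a7 (0.0582 against 0.455), and 0 of 12 S2 genes passed 2-fold. Kap was higher in cluster 12 (16.1 against 2.13), as were Ucp2 (0.839 against 0.142), Gstm1 (2.26 against 0.637) and Acaa1b (1.25 against 0.376). Gatm was lower (0.699 against 3.50). Lysosomal genes had 2 of 18 lower (median -0.58), and the Malat1 means of the 2 clusters were 0.884 and 0.990.

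**Figure D5:**
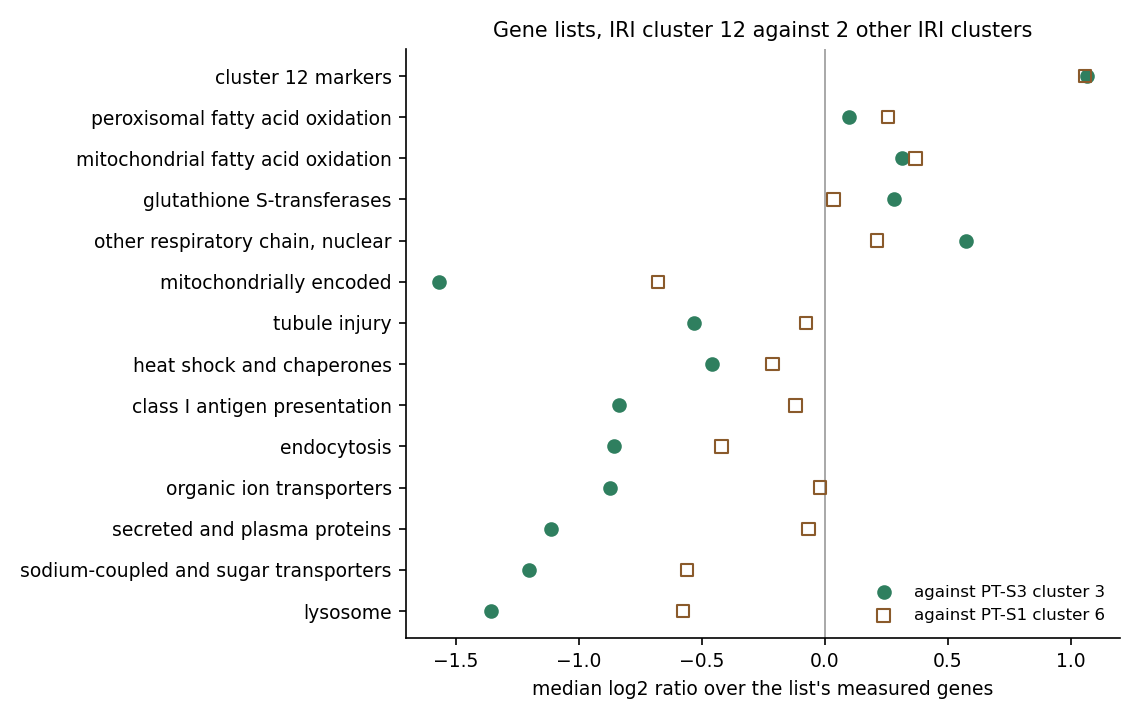
Median log2 ratio over the measured genes of 14 gene lists, IRI cluster 12 against IRI PT-S3 cluster 3 (filled circles) and against IRI PT-S1 cluster 6 (open squares). Against cluster 3 the lysosomal, transporter, secreted and endocytic lists lie between -1.36 and -0.86 and the nuclear respiratory chain without cytochrome c oxidase at 0.58, while against cluster 6 these lists lie nearer to 0.

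Within IRI cluster 12 levels varied with depth to different degrees although the counts were corrected for it. From the 73 cells with 410 to 1832 raw UMIs to the 73 with 5047 to 16071, the mean of Gstm1 went from 1.73 to 3.47, of Fam25c from 0.247 to 0.836, and of Inmt from 0.0548 to 0.521. Spp1 moved less, from 1.73 to 2.21, as did Acaa1b, from 1.18 to 1.52. The mitochondrial share went from 12.4% to 5.95%. The Gstm1 mean of the shallowest IRI set, 1.73, lay above the 0.394 of all control cluster 12 cells, and the Inmt mean of the deepest, 0.521, below the 2.5 of the control.

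Markers of other cell types were present at low summed levels, and doublets were not called. The 8 macrophage markers summed to 0.242 in control and 0.384 in IRI cluster 12, and 8 lymphocyte and neutrophil markers to 0.0303 and 0.164. The neutrophil genes S100a8 (0.0788) and S100a9 (0.0514) are listed at 0 in control cluster 12. Endothelial and stromal markers had 0 genes of 7 in each list that passed the filter on low values between the libraries, and the 7 thick limb markers summed to 0.182 and 0.0993. The macrophage markers summed to 0.2 among control and 0.359 among IRI cells of the other PT-S2 clusters, and the part of free RNA or doublets in these sums was not tested.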

How the data were processed

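Droplet single-cell RNA sequencing of 1 control and 1 IRI kidney was processed with Cell Ranger 3.0.0 and Seurat 3.2 against build mm9, per the submitters' processing notes, which give no role or order. The values used are a deposited table of 15169 genes and 11759 cells whose whole numbers are a score: depth-corrected counts as SCTransform gives them, not raw counts. A deposited table of their natural log was not used, and a deposited table of residuals, also a score, served only to check depth. No annotation of that build was used, so the genes of the files carry no coordinates.

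The deposited cell annotation (29 clusters, 18 cell types) has no separators. It was split by matching the corrected total of each of the 11759 cells. In 3615 cells (110 in cluster 12) raw UMIs and genes could be divided in more than 1 way, and the first way that gave at least 200 genes was taken. Raw UMIs read in this way were checked against the Top2a residuals across 11626 cells (Spearman rho -0.998).

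Sets of at least 20 cells were compared by the log2 ratio of mean corrected counts, 0.05 added to each mean, over genes with at least 10 summed corrected counts. This step was tested on simulated data for the better expressed genes of IRI cluster 12 alone. Scarce genes, whose ratios lean on the added 0.05, were not covered. The 95% intervals of shares are exact (Clopper-Pearson), also for a count of 0, and those of their ratios exact and conditional. They take in error of counting alone. The members, the comparisons and 40 gene lists (554 of 563 genes in the table) were chosen with earlier results of these data known. Named genes are the 12 highest and 12 lowest ratios among genes whose corrected counts sum to 30 or more and whose mean is 0.1 or more in the higher set, leaving out haemoglobin, ribosomal protein, mitochondrial, Rik and Gm-number genes, plus list members and paralogs of the markers. Any other gene was chosen after its values were seen. Some list members are not reported here by name.

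Raw counts were not used here, so cells were not thinned and doublets were not called, and the plan's intervals for ratios of expression were not computed. Alternatives were other added values, scalings, depth minimums and limits, and the largest other PT-S2 cluster. The scaling among cells with at least 2000 raw UMIs, control cluster 1 and PT-S3 cluster 3 were chosen after seeing the data. Promoters are RefSeq's (GRCm38.p6). Python 3.11.15, numpy 2.4.6, scipy 1.17.1, pandas 2.3.3 and matplotlib 3.10.9 were used.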

Additional observations from a re-analysis of the deposited data

Results flagged for a closer look

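In 10 named genes the log2 ratio of cluster 12 over the other PT-S2 cells was past 2-fold in opposite directions in the 2 libraries, and the difference was not tested. Over all measured genes 5.63% were at least 2-fold higher in the IRI library and 0.516% at least 2-fold lower in the control library. Named genes include the extremes of these same comparisons, so the count does not show how usual such a split is. Gstm1 was at 1.53 in the IRI and -1.32 in the control library, a difference of 2.85. Ccng1 was at 1.56 and -1.17, a difference of 2.73. The medium-chain acyl-CoA synthetase Acsm3 was at 1.51 and -1.21 (2.72), and Mpv17l, a homologue of a mitochondrial membrane protein, at 1.47 and -1.19 (2.67). The growth factor Fgf1 was at 1.24 and -1.31 (2.55), the dipeptidase Cndp2 at 1.27 and -1.10 (2.37), the acyl-CoA thioesterase Acot12 at 1.28 and -1.08 (2.36), and the peroxisomal carnitine acyltransferase Crot at 1.04 and -1.14 (2.18). Ctxn3 was at 1.28 in the IRI and just past 2-fold lower in the control library (2.28), and Sh3bgrl at 1.02 and -1.08 (2.10), both listed at 0 in control cluster 12. On the IRI side none of the 10 was past 2-fold after scaling by totals (0.45 to 0.92), and among cells with at least 2000 raw UMIs Ctxn3 was (1.46) and the other 9 were not (0.04 to 0.99). On the control side all 10 stayed past 2-fold under both. For Ctxn3 and Sh3bgrl the scaling could not change the value, because it acts on a mean of 0.

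In 4 named genes IRI over control lay past 2-fold on opposite sides in cluster 12 and in the other PT-S2 cells, and the difference was not tested either. The other cells are mostly cluster 0 in the IRI library and mostly clusters 1 and 2 in the control. S1 genes, such as Slc5a12, took 45.3% of the segment sums in IRI cluster 0 and 23.3% in control cluster 1. The part of this was not tested. Over all genes 3.43% were higher and 1.47% lower in cluster 12, and 0.27% and 2.34% in the other cells. Slc5a12 was at -1.15 in cluster 12 and 1.05 in the other cells, a difference of -2.20, and Acot12 at 1.28 and -1.08, a difference of 2.36. The mitochondrial dehydrogenase Bdh1, listed at 0 in control cluster 12, was at 1.24 and -1.32 (2.56), and Fgf1 at 1.53 and -1.02 (2.55). After scaling by totals, and among cells with at least 2000 raw UMIs, Slc5a12 and Bdh1 were past 2-fold in both sets of cells, while in the other PT-S2 cells Acot12 (-0.84 and -0.77) and Fgf1 (-0.77 and -0.65) were not, nor was Acot12 in cluster 12 at that depth (0.84). The control side of cluster 12 is 66 cells in each of these values, and Slc5a12 had means there of 0.121 for control and 0.0274 for IRI cells.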

How the results depend on the processing

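Of 1135 alternative values for the counts, share ratios and 112 values of named genes, 937 stayed within the set limits of their reported value, 189 moved and 9 had the other sign. The values for 1 library per group carry no error between animals, so no library could be left out in turn. No paired analysis was possible because each group is 1 library and the labels carry no replicate numbers. The causes of the moves below were not tested. With at least 2000 raw UMIs 31 of 66 control cells of cluster 12 were left, and 95 of the 1190 other IRI PT-S2 cells.

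In the control library, cluster 12 over other PT-S2 cells changed sign for Fam25c (-0.19), Malat1 (0.0887) and Spp1 (0.22) among cells with at least 2000 raw UMIs, and there with scaling by totals too (-0.19, 0.0834 and 0.21). Against the largest other PT-S2 cluster alone Malat1 was at 0.22 and Spp1 at 0.41. Gatm was at 1.06 for IRI cluster 12 over control cluster 1.

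Counts of genes higher and lower in cluster 12 than in other IRI PT-S2 cells (442 and 18) were 1848 and 102 with 0.01 added, 222 and 41 with at least 1000 raw UMIs, and 196 and 103 with at least 2000. They were 1 and 45 with the trimmed mean, 3 and 41 with totals without mitochondrial, ribosomal and haemoglobin genes, 38 and 184 with that scaling and at least 2000 raw UMIs, and 3 and 6 at 3-fold. Higher genes numbered 47 with 0.2 added and 142 by each cell's own proportions. In the control library (103 and 48) the counts were 860 and 1118 with 0.01 added, 7 and 5 with 0.2, 6 and 104 with the trimmed mean, and 43 and 69 with those totals. They were 49 and 105 with at least 1000 raw UMIs, 213 and 248 with at least 2000, 205 and 249 with at least 2000 and scaling, 2 and 2 at 3-fold, and 68 and 139 against the largest other cluster.

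For IRI over control within cluster 12 (163 and 70) the counts were 680 and 260 with 0.01 added, 15 and 8 with 0.2, 291 and 49 with the trimmed mean, and 355 and 163 with at least 2000 raw UMIs. They were 52 and 22 with at least 50 summed corrected counts, 22 and 7 at 3-fold, and 47 and 62 over control cluster 1. In the other PT-S2 cells (27 and 234) they were 148 and 840 with 0.01 added, 7 and 52 with 0.2, 51 and 116 with the trimmed mean, 78 and 82 with totals, 61 and 430 with at least 1000 raw UMIs, 184 and 398 with at least 2000, and 8 and 33 at 3-fold. With at least 2000 raw UMIs the ratio of shares went from 5.64 to 9.57 over all cells, from 6.55 to 12.1 over proximal tubule cells and from 8.31 to 26.2 over PT-S2 cells, where at least 1000 gave 11.5.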
